A study of Homo sapiens with 16 samples.

Results

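The genes described here are 10 histone genes, read in AsPC-1, an established human cell line from a pancreatic adenocarcinoma. They are H2AC6, H2AC25 and H2AC15, which encode histone H2A, H2BC5, H2BC21, H2BC17 and H2BC3, which encode H2B, and H3C6, H4C8 and H1-6, which encode H3, H4 and a linker histone. They were read by the 11 probe sets of the deposited table that are listed for 1 of these genes and no other, out of 9554 probe sets and 5250 named genes in all. H2BC5 had 2 probe sets and each other gene 1. The 10 genes were chosen by their intensities on these same arrays, with earlier results known, and which contrast counted most is not recorded. All comparisons among the 6 groups are therefore treated as used for the choice, and what is said of these genes is a description. A gene is said to have risen or fallen where the fit over all 5250 genes gave it an adjusted p under 0.05, and the share of all genes that did so is given with each comparison.

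All 6 groups were cultures of the same line. One experiment used the compound ICG-001 at 10 µM, known as a ligand of the histone acetyltransferase CBP that keeps β-catenin from it, and DMSO as its vehicle control. Cells were collected after 6 h or 24 h, giving 4 groups of 3 arrays. In a separate experiment AsPC-1 cells were transfected with 20 nM control siRNA or 20 nM CTNNB1 siRNA, aimed at the gene for β-catenin, and read at 48 h with 2 arrays in each group. Arrays of 1 group are named biological replicates in the titles, which say nothing of separate cultures or days. The stated errors therefore measure spread between arrays only. Each SE comes from 1 model that pools the spread over all 6 groups and adjusts it with that of other genes. It is thus not the spread of the compared groups alone.

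Histones are the proteins around which DNA is wound. A core particle holds H2A, H2B, H3 and H4, and a linker histone of the H1 family sits where DNA enters and leaves it. Most histone genes lie in clusters and are transcribed mainly while DNA is copied, and their mRNAs end in a stem-loop in place of a poly(A) tail. Some of these genes, H2BC5, H2AC6 and H2BC21 among them, are also known to give polyadenylated transcripts, which have been found in cells that have left the cell cycle or are differentiating. Affymetrix labelling commonly starts from the poly(A) tail, and the labels do not say which variant was used here. Histone genes also have near-identical copies, so a probe set listed for 1 gene may still take up transcripts of its relatives.

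By RefSeq's annotation of GRCh38.p14, 8 of the 10 genes are on chromosome 6 and 2, H2BC21 and H2AC25, are on chromosome 1. Their protein-coding neighbours on at least 1 side are other histone genes. H2AC6 lies between H2BC4 and H1-4, H2BC21 between H3C15 and H2AC20, and H2BC3 between H2AC4 and H3C3. The gene models of H2BC5, H3C6 and H2BC21 span 13229, 3296 and 2224 bases, whereas those of the other 7 span 409 to 724. Among 69 protein-coding histone genes of these families the median span was 494 bases, and 8 exceeded 1000.

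The sequences just before the start sites are shown to set H2A, H2B and H4 genes that rose with the drug beside H2BC3, an H2B gene that did not pass the test. Each run has 150 bases, reads 5′ to 3′ toward the gene and ends at the base before the annotated start, and RefSeq on GRCh38.p14 is the source. Capitals mark 3 motifs, each on either strand. The first is CCAAT, the letters of the CCAAT box, a general promoter element. The next is TATAAA, the letters of a TATA box. The last is ATTTGCAT, the octamer known from H2B promoters. A match on the opposite strand appears as the reverse complement.

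H2AC6, chr6:26124022-26124171, plus strand: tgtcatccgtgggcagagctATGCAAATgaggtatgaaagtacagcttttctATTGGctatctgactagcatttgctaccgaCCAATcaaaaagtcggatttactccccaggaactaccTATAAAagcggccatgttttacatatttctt
H2AC25, chr1:228457874-228458023, minus strand: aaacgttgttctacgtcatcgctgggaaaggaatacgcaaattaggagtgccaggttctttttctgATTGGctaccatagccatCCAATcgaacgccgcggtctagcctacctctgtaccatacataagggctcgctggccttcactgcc
H2BC5, chr6:26157971-26158120, plus strand: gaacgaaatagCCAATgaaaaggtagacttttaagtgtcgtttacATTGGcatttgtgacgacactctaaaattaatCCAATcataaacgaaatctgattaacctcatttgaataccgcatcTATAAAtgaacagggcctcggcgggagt
H2BC21, chr1:149886683-149886832, minus strand: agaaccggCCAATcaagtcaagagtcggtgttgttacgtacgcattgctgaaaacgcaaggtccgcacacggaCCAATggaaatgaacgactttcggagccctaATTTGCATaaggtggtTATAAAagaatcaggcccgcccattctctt
H2BC17, chr6:27893275-27893424, plus strand: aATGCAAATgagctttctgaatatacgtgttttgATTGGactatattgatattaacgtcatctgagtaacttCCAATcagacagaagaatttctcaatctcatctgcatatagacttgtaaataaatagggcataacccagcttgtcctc
H2BC3, chr6:26043714-26043863, minus strand: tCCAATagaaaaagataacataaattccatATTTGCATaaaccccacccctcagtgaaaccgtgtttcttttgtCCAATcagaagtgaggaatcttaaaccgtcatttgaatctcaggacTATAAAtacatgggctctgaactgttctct
H4C8, chr6:26285535-26285684, minus strand: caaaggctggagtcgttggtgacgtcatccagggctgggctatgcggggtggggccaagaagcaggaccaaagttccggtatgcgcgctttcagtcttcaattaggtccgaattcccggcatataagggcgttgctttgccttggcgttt

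All 10 genes matched an entry of the RefSeq promoter table, and H2BC5 and H3C6 had 2 start sites each, of which the upstream one is shown for H2BC5. In the 250 bases before the start, CCAAT in either orientation was found in 9 of the 10 genes, TATAAA in 6 and ATTTGCAT in 4. Of 35116 promoter windows of all genes, 32.0% held CCAAT, 10.7% TATAAA and 1.63% ATTTGCAT, against 85.3%, 66.2% and 39.7% of 68 windows of histone genes. All 4 H2B genes held CCAAT and TATAAA, and 3 of them, H2BC3 included, held ATTTGCAT. H2BC5 was the H2B gene without the octamer. TATAAA lay with its nearest base 23 to 26 bases before the start in H2AC6, H2BC5, H2BC21 and H2BC3, and more than 150 bases away in H2BC17 and H3C6. No match to any of these letters was found for H4C8. No 2 matches overlapped in these windows, and a match is a description of the sequence only.

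On the arrays as a whole, the median intensity was 20.6 to 28.6 in the drug experiment and 12.7 to 13.05 in the siRNA experiment, and all 16 arrays were put on a common distribution by quantile normalization. Mean intensity was 164 to 179 with ICG-001 and 132 to 137 with DMSO. Where groups are said to overlap or not, deposited intensities are meant. The share of all genes whose groups did not overlap was not counted. Intensities given below are the deposited ones, while changes are log2 differences of normalized values with 16 added, given as ± SE. No probe set was listed for CTNNB1 alone, which leaves the knockdown unchecked on its target. Of 12 epithelial and duct markers 6 were in the table, and their summed intensity was 3034 to 4208 on the drug experiment's arrays and 486 to 647 on the siRNA arrays. Levels are for that reason not compared between the experiments. No acinar or islet marker was among the probe sets analysed here. The single leukocyte marker in the table, PTPRC, read 4.07 to 31.7, and the endothelial markers PECAM1 and KDR read at most 15.3 and 21.3. Of 7 fibroblast markers 4 were in the table, and they summed to 311 to 425 on the drug arrays and 138 to 208 on the siRNA arrays. Their part in the histone values was not tested. Each array read RNA of a whole culture, in which more cells with a transcript and more RNA per cell cannot be told apart.

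After 24 h of ICG-001, 7 of the 10 histone genes were higher than with DMSO and 0 were lower. They were H2AC6, H2AC25, H2BC5, H2BC21, H2BC17, H3C6 and H4C8. Every probe set of the table had a coefficient of variation of at least 0.40 over the 16 arrays, H4C8 at 0.401. High readings at 24 h of ICG-001 add to that variation, so these rises may be part of why the genes are in the table. Among all 5250 genes 9.22% rose in this comparison and 11.3% fell. The median change of the 10 genes was 0.80, against -0.02 for all genes. In the deposited scaling the same count of 7 rose, with a median of 0.98 against 0.09, where 14.1% of all genes rose. Since this comparison may have served to pick the genes, nothing is read from the share. The summed epithelial markers also differed here, at 3191 to 3738 with DMSO and 3034 to 3162 with ICG-001, while the fibroblast markers overlapped at 311 to 401 and 332 to 381.

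**Figure D1:**
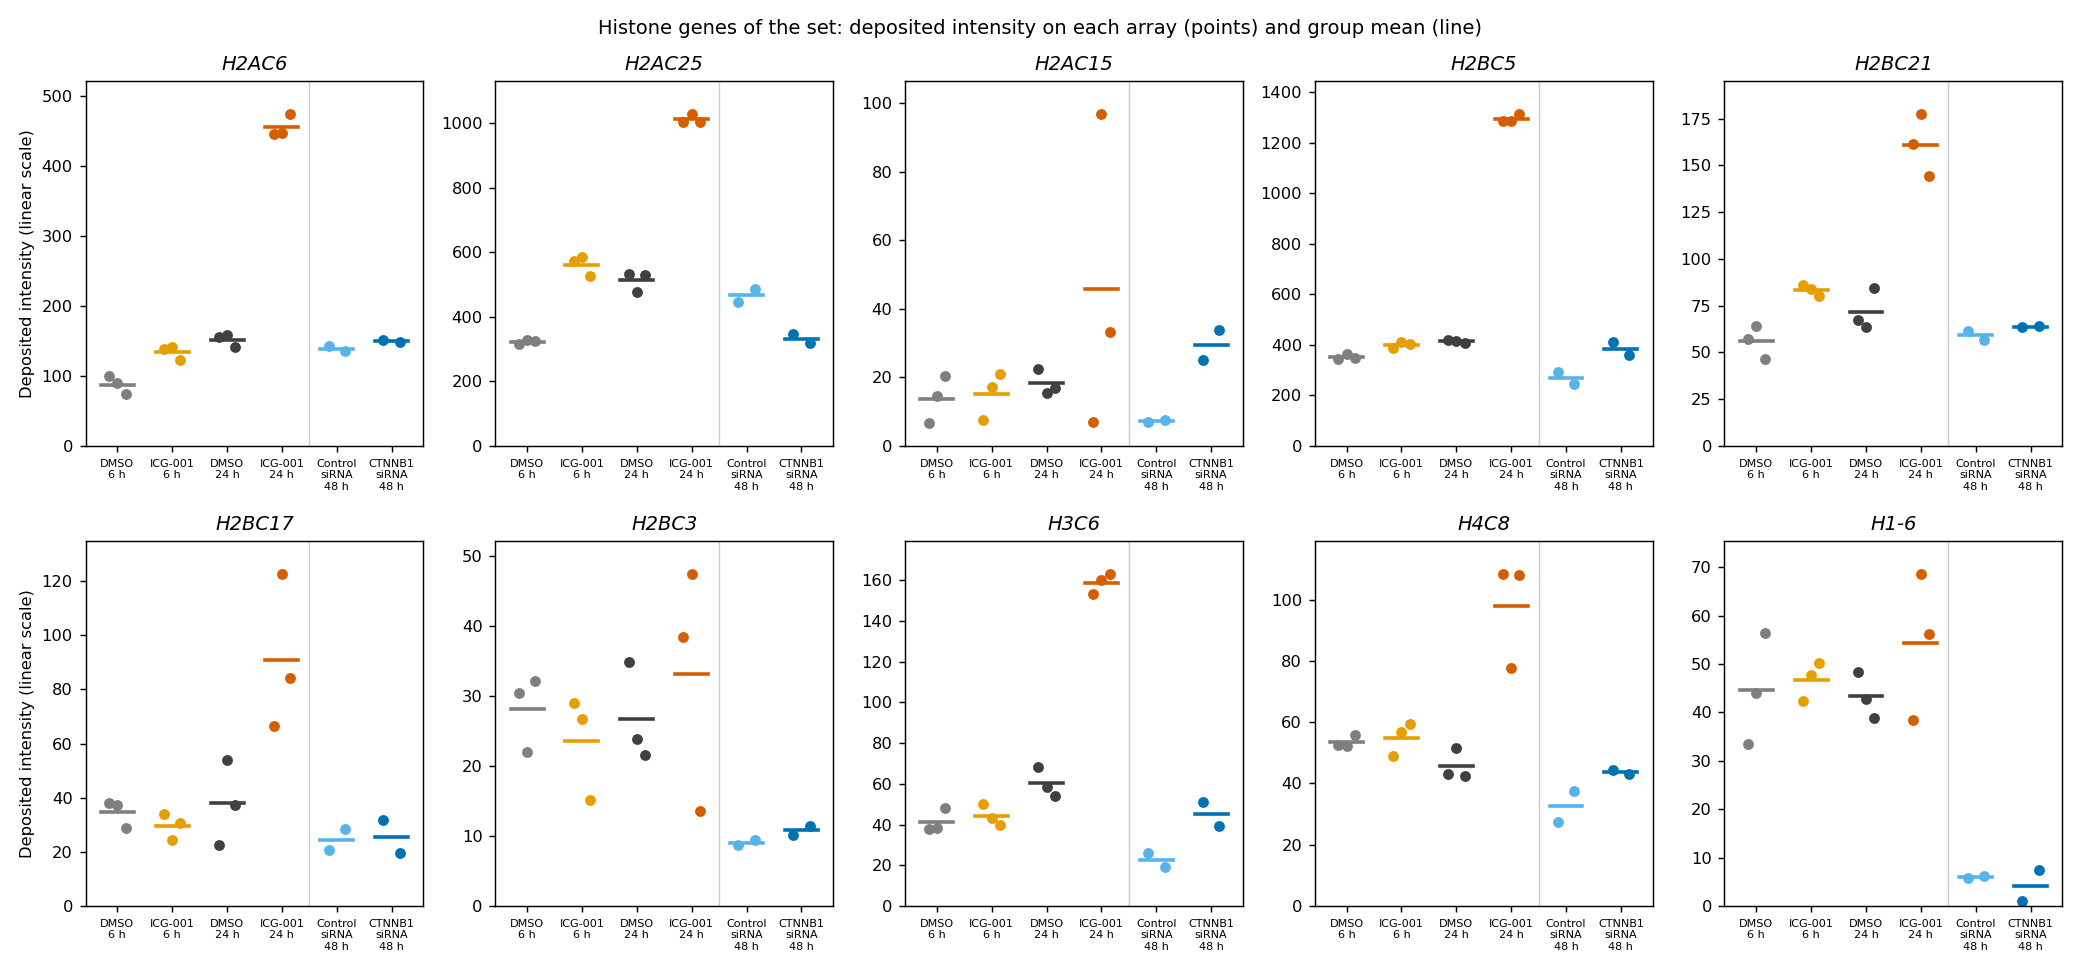
Deposited intensity (linear scale, a separate axis from 0 in each panel) of the 10 histone genes on each array, by group. Points are arrays and lines are group means. In the panels of H2AC6, H2AC25, H2BC5, H2BC21, H2BC17, H3C6 and H4C8 the arrays with ICG-001 at 24 h stand above those with DMSO at 24 h. The drug arrays at 24 h were also brighter as a whole, with mean intensities of 171 to 179 against 135 to 137. How many of all genes stand apart in this way was not counted. The panels of H2AC15, H2BC3 and H1-6 show overlap. The grey line separates the experiments, which are not compared.

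Among the H2A genes, H2AC6 read 156, 158 and 142 with DMSO at 24 h and 446, 446 and 473 with ICG-001. The lowest drug array was thus well above the highest control array. Its log2 change was 1.38 ± 0.10, or 2.61-fold on this scale. H2AC25 read 533, 475 and 531 with DMSO and 1003, 1027 and 1004 with ICG-001, again without overlap. It rose by 0.69 ± 0.07 (0.96 ± 0.07 in the deposited scaling). H2AC15, another H2A gene, read 22.6, 15.4 and 16.96 with DMSO and 6.91, 96.8 and 33.2 with ICG-001. Its drug arrays lay on both sides of the controls, and its change of 0.46 ± 0.35 did not pass the test. Without ICG-001 24 h replicate 1 it was 0.95 and passed.

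Among the H2B genes, H2BC5 read 418, 416 and 408 with DMSO at 24 h and 1283, 1284 and 1312 with ICG-001. Its arrays within each group differed little, and it rose by 1.29 ± 0.07, or 2.44-fold (1.61 ± 0.07 in the deposited scaling). Its other probe set read 278, 284 and 295 with DMSO and 681, 673 and 658 with ICG-001. That probe set rose by 1.03 ± 0.07 in the fit of all probe sets with 1 named gene, so both rose. H2BC21 read 67.3, 63.3 and 84.2 with DMSO and 162, 177 and 144 with ICG-001, and rose by 0.95 ± 0.13. H2BC17 read 22.7, 53.9 and 37.5 with DMSO and 66.4, 122 and 84.2 with ICG-001. Its groups did not overlap but spread widely. It rose by 0.86 ± 0.23, and the call was lost without ICG-001 24 h replicate 2 (0.67) and without DMSO 24 h replicate 1 (0.65). With 64 in place of 16 added before log2 its change was 0.50. H2BC3 read 34.9, 23.8 and 21.6 with DMSO and 38.4, 47.4 and 13.6 with ICG-001. The groups overlapped, and its change of 0.03 ± 0.23 did not pass.

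The H3 gene H3C6 read 68.2, 58.6 and 53.8 with DMSO at 24 h and 153, 160.0 and 163 with ICG-001. The groups were far apart, and it rose by 1.12 ± 0.14, or 2.17-fold. The H4 gene H4C8 read 43.1, 51.6 and 42.4 with DMSO and 108, 77.7 and 108 with ICG-001. It rose by 0.74 ± 0.15 (0.45 with 64 added). H1-6, a linker histone gene known for expression in the testis, read 48.3, 42.9 and 38.8 with DMSO and 38.4, 68.5 and 56.2 with ICG-001. These ranges overlapped, and its change was 0.12 ± 0.19.

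After 6 h of ICG-001, 3 of the 10 genes were higher and 0 lower, where 5.54% of all genes rose and 8.19% fell. The 3 were H2AC25, H2AC6 and H2BC21. H2AC25 read 317, 327 and 325 with DMSO and 572, 585 and 526 with ICG-001, and it rose by 0.64 ± 0.07. H2AC6 read 99.0, 89.6 and 73.8 with DMSO and 139, 141 and 123 with ICG-001, and it rose by 0.50 ± 0.10. H2BC21 read 57.1, 64.1 and 46.6 with DMSO and 86.0, 84.0 and 80.2 with ICG-001, and it rose by 0.41 ± 0.13. In H2AC25, H2AC6 and H2BC21 alike, the arrays with ICG-001 lay above those with DMSO. The H2BC21 call is the least firm of them. It was lost on leaving out any of the 3 drug arrays (0.38 to 0.44), DMSO 6 h replicate 1 (0.42) or DMSO 6 h replicate 3 (0.32), and the change was 0.25 with 64 added.

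The other 7 genes did not pass at 6 h. H2BC5 read 345, 364 and 346 with DMSO and 386, 412 and 404 with ICG-001. Its groups did not overlap, yet its change was 0.05 ± 0.07 after normalization and 0.18 ± 0.07 in the deposited scaling, and it did not pass in either. H3C6 stood at 0.04 ± 0.14, H4C8 at -0.01 ± 0.15 and H2BC17 at -0.16 ± 0.23. H1-6 stood at 0.03 ± 0.19, H2AC15 at 0.06 ± 0.35 and H2BC3 at -0.17 ± 0.23. The median of the 10 genes was 0.04 against -0.02 for all genes.

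**Figure D2:**
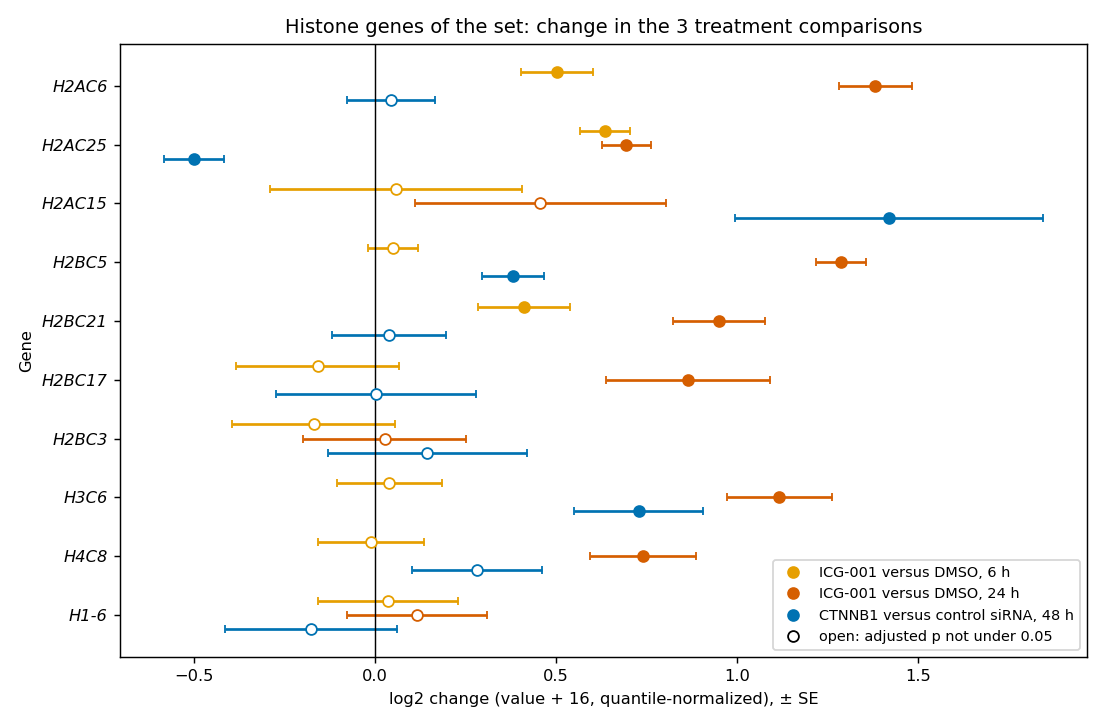
Log2 change ± SE of each of the 10 histone genes with ICG-001 against DMSO at 6 h and 24 h (3 arrays per group) and with CTNNB1 siRNA against control siRNA at 48 h (2 arrays per group). Filled points had an adjusted p under 0.05 in the fit over 5250 genes. At 24 h of ICG-001 7 points are filled, all above 0. At 6 h 3 are, and in the siRNA comparison 3 lie above 0 and 1, H2AC25, below.

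The difference between the drug's change at 24 h and at 6 h was fitted as an interaction term, which 3.85% of all genes passed upward and 3.92% downward. Of the 10 genes, 4 passed it, all with the larger change at 24 h. The difference was 1.24 ± 0.10 for H2BC5, 1.08 ± 0.20 for H3C6, 0.88 ± 0.14 for H2AC6 and 0.75 ± 0.21 for H4C8. The H4C8 call was not firm. It ended with each array centred on its median (0.74). Leaving out any of 9 arrays in turn also ended it, namely ICG-001 6 h replicate 1 or 2, ICG-001 24 h replicate 1 or 3, any DMSO 6 h array, or DMSO 24 h replicate 1 or 3, with values of 0.66 to 0.76. It was 0.46 with 64 added. For H2BC17 the difference was 1.02 ± 0.32 and missed the threshold, but passed in the deposited scaling (1.15 ± 0.31). It also passed without ICG-001 24 h replicate 1, DMSO 24 h replicate 2 or either CTNNB1 siRNA array (1.03 to 1.21). For H2BC21 it was 0.54 ± 0.18 and missed the threshold, passing without DMSO 6 h replicate 3 (0.63) or DMSO 24 h replicate 3 (0.64). H2AC25 differed by 0.06 ± 0.10 between the times, H1-6 by 0.08 ± 0.27, H2BC3 by 0.20 ± 0.32 and H2AC15 by 0.40 ± 0.49, none past the test.

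From 6 h to 24 h in DMSO alone, 3 of the 10 genes rose and 0 fell, where 4.67% of all genes rose and 3.92% fell. H2AC6 rose by 0.71 ± 0.10, from a mean of 87.5 ± 12.7 to 152 ± 8.67 (SD, n = 3). H2AC25 rose by 0.66 ± 0.07, from 323 ± 5.49 to 513 ± 32.7. H2BC5 rose by 0.24 ± 0.07, from 351 ± 10.7 to 414 ± 5.53, a small change. It missed the threshold in the deposited scaling (0.23), on leaving out any of DMSO 6 h replicates 1 and 3, the 3 DMSO 24 h arrays and ICG-001 24 h replicate 1 (0.22 to 0.25), and its other probe set stood at -0.04 ± 0.07. H3C6 stood at 0.37 ± 0.14 and H2BC21 at 0.23 ± 0.13, both short of the test.

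From 6 h to 24 h with ICG-001, 7 of the 10 genes rose and 0 fell, where 8.48% of all genes rose and 8.84% fell. This comparison shares its 24 h arrays with the drug comparison at 24 h, so the counts are not independent. H2AC6 rose by 1.59 ± 0.10, H2BC5 by 1.48 ± 0.07 and H3C6 by 1.44 ± 0.14. H2BC17 rose by 1.05 ± 0.23, H2BC21 by 0.77 ± 0.13 and H2AC25 by 0.71 ± 0.07. With 64 added, H3C6 stood at 0.94 and H2BC17 at 0.60. H4C8 rose by 0.57 ± 0.15, a call lost without ICG-001 24 h replicate 1 (0.48) or replicate 3 (0.50), and it was 0.35 with 64 added. H2AC15 stood at 0.60 ± 0.35, and at 1.09, past the test, without ICG-001 24 h replicate 1. H1-6 stood at 0.05 ± 0.19 and H2BC3 at 0.13 ± 0.23.

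**Figure D3:**
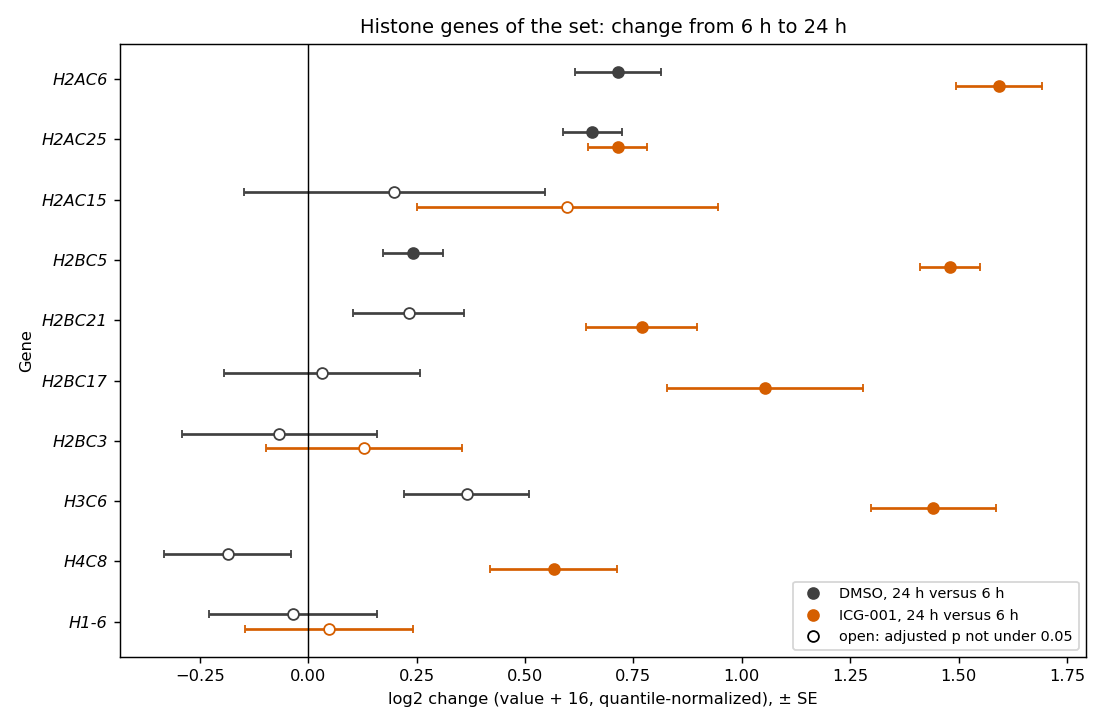
Log2 change ± SE from 6 h to 24 h of the 10 histone genes in DMSO and in ICG-001, with 3 arrays per group. Filled points had an adjusted p under 0.05 in the fit over 5250 genes. H2AC25 moved by 0.66 in DMSO and 0.71 in ICG-001, while H2BC5 moved by 0.24 and 1.48.

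The order of the drug experiment's groups therefore differed between genes. H2AC25 was lowest with DMSO at 6 h and highest with ICG-001 at 24 h, and in between DMSO at 24 h (475 to 533) overlapped ICG-001 at 6 h (526 to 585). H2AC6 had the same ends, with ICG-001 at 6 h (123 to 141) just below DMSO at 24 h (142 to 158). For H2BC5 the deposited intensities of ICG-001 at 6 h (386 to 412) overlapped those of DMSO at 24 h (408 to 418). After normalization they did not, with log2 values of 8.53 to 8.64 and 8.78 to 8.80. For H2BC21 ICG-001 at 6 h and DMSO at 24 h read 80.2 to 86.0 and 63.3 to 84.2. In H3C6 DMSO and ICG-001 at 6 h overlapped (37.6 to 48.3 and 40.0 to 49.9), DMSO at 24 h lay above both (53.8 to 68.2), and ICG-001 at 24 h above all. In H4C8 and H2BC17 ICG-001 at 24 h was the group apart from the rest, the other 3 lying at 42.4 to 59.4 and at 22.7 to 53.9.

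With CTNNB1 siRNA, 3 of the 10 genes were higher and 1 was lower than with control siRNA, where 6.25% of all genes rose and 5.90% fell. H2BC5 read 293 and 244 with control siRNA and 412 and 358 with CTNNB1 siRNA. The groups did not overlap, with only 2 arrays in each, and H2BC5 rose by 0.38 ± 0.08. The groups of H2AC6, H2BC21, H4C8 and H2BC3 did not overlap either, and none of these passed the test. Separation is therefore not read as support here. H3C6 read 26.1 and 19.2 against 51.3 and 39.1, and rose by 0.73 ± 0.18 (0.44 with 64 added). H2AC25 went the other way, reading 445 and 486 with control siRNA and 347 and 318 with CTNNB1 siRNA, and it fell by 0.50 ± 0.08. H2AC15 read 6.83 and 7.59 against 24.9 and 33.9, all low intensities, and rose by 1.42 ± 0.43. Adding 1 before log2 gave 2.32, which did not pass, and adding 64 gave 0.67.

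These knockdown calls differed in how firm they were. Fitted on the 4 siRNA arrays alone, the fall of H2AC25 was the 1 call of the 10 genes that remained. The calls of H2BC5 and H3C6 ended without control siRNA replicate 2 (0.29 and 0.52) and without CTNNB1 siRNA replicate 1 (0.29 and 0.60). That of H2AC15 ended without any of the 4 siRNA arrays (1.27 to 1.62) and in the deposited scaling (0.96). The other probe set of H2BC5 stood at 0.22 ± 0.09, short of the test. H2AC6 read 142 and 135 against 151 and 148 and stood at 0.04 ± 0.12. H2BC21 stood at 0.04 ± 0.16, H4C8 at 0.28 ± 0.18, H2BC17 at 0.00 ± 0.28, H2BC3 at 0.14 ± 0.28 and H1-6 at -0.18 ± 0.24. The drug and siRNA changes were not tested against each other.

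Histone genes outside the set were few in the table. Of 6 read by a probe set of their own, 1 rose at 24 h of ICG-001 and 0 fell, where 9.22% of all genes rose and 11.3% fell, and their median was -0.09. The gene that rose was H1-2, a linker histone gene. It read 331, 323 and 280 with DMSO at 24 h and 459, 472 and 428 with ICG-001, and its change was 0.33 ± 0.09 (0.52 in the deposited scaling). Without DMSO 24 h replicate 3 it was 0.27 and missed the threshold. In DMSO H1-2 fell by 0.43 ± 0.09 from 6 h to 24 h, and its drug arrays at 6 h and 24 h stood at 0.02 ± 0.09 from each other. The changes at 24 h of ICG-001 were -0.23 ± 0.21 for the linker gene H1-5, -0.19 ± 0.19 for H3C11 and 0.01 ± 0.22 for MACROH2A1, which encodes a variant H2A. The pseudogenes H2AC5P and H4C10P stood at 0.16 ± 0.25 and -0.26 ± 0.19. At 6 h of ICG-001 0 of these 6 passed in the limma fit, and 0 had an unadjusted p under 0.05. With CTNNB1 siRNA, where 6.25% of all genes rose, MACROH2A1 alone of the 6 passed, at 1.09 ± 0.27 and from a low intensity. The call was absent in the deposited scaling (0.76) and without control siRNA replicate 1 (0.74). Its other probe set was slightly lower with CTNNB1 siRNA (mean log2 of 4.70 against 4.87), and the mean of its probe sets gave 0.46, which did not pass.

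A further 7 probe sets were listed for several histone genes and so belong to no single gene. Read from a fit of all 9554 probe sets, chosen after the data were seen, 2 rose and 1 fell at 24 h of ICG-001, where 7.89% of probe sets rose and 7.83% fell. The probe set for H2BC11 and H2BC8 rose by 0.98 ± 0.15, reading 59.2, 92.8 and 94.1 with DMSO and 171, 204 and 178 with ICG-001. That for 11 genes, mostly of the H3 family and H3C6 among them, rose by 0.71 ± 0.13, reading 60.5, 75.3 and 88.5 against 137, 136 and 139. One of the 2 probe sets listed for 14 H4 genes, H4C8 among them, fell by 0.82 ± 0.22, reading 21.8, 32.5 and 15.3 against 8.68, 9.17 and 1.00. The other stood at -0.02 ± 0.27. H4C8's own probe set and a shared H4 probe set thus moved in opposite directions, the shared one at low intensities. The shared probe set including H2AC15 stood at 0.26 ± 0.21. In that limma fit 0 of the 7 passed at 6 h, where 4.53% of probe sets rose and 5.42% fell, and 2 had an unadjusted p under 0.05. In the deposited scaling 1, the H3 probe set, passed at 6 h. With CTNNB1 siRNA 0 passed and 0 had an unadjusted p under 0.05, where 4.67% of probe sets rose and 4.86% fell.

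**Figure D4:**
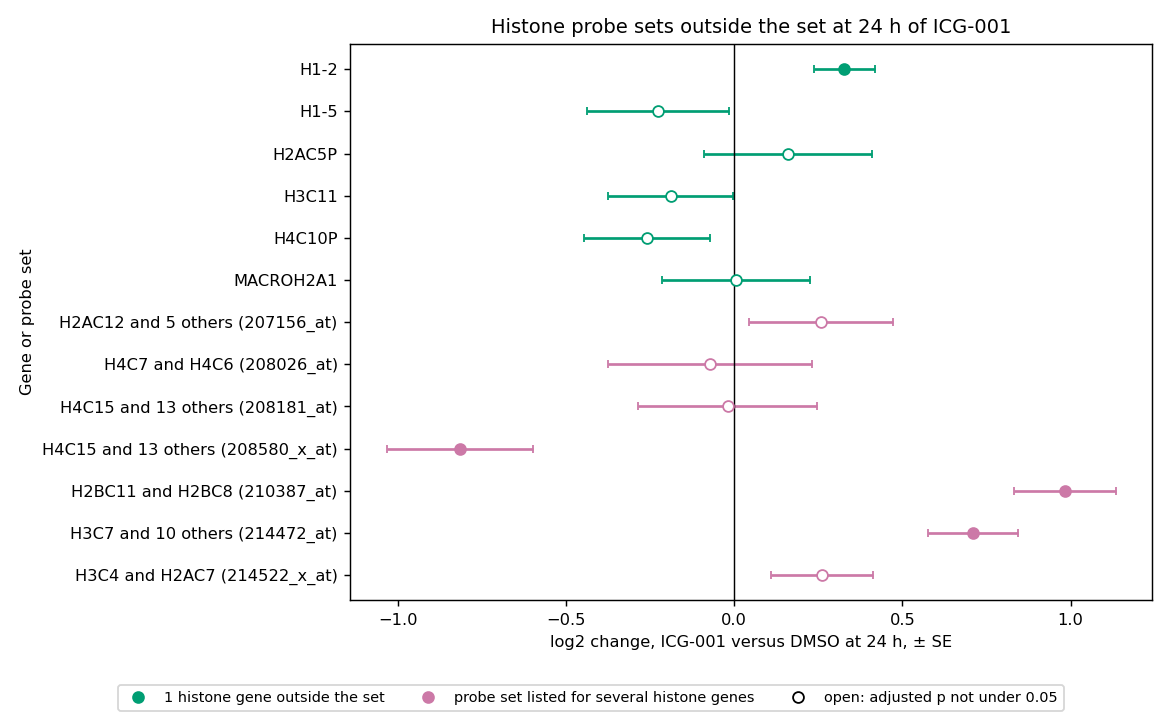
Log2 change ± SE at 24 h of ICG-001 against DMSO (3 arrays per group) for the 6 histone genes outside the set and the 7 probe sets listed for several histone genes. Filled points had an adjusted p under 0.05. H1-2 and the probe sets of H2BC11 and H2BC8 and of 11 genes led by H3C7 lie above 0, and 1 of the probe sets for 14 H4 genes lies at -0.82.

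Of 27 listed genes of histone mRNA transcription and processing, a list that includes regulators of entry into DNA synthesis, 5 were in the table. At 24 h of ICG-001 4 of them fell and 0 rose (median -0.89), where 11.3% of all genes fell. CCNE2, a cyclin that drives entry into DNA synthesis, fell by 2.74 ± 0.05, and CDC25A, a phosphatase that activates its kinase partner, fell by 2.12 ± 0.09. SRRT, which couples capped transcripts to processing, fell by 0.89 ± 0.11 and NCBP1, a cap-binding subunit, fell by 0.69 ± 0.14. At 6 h 3 of the 5 fell, where 8.19% of all genes did, CDC25A by 1.37 ± 0.09, CCNE2 by 1.18 ± 0.05 and SRRT by 0.62 ± 0.11. With CTNNB1 siRNA 1 fell, where 5.90% of all genes did, CCNE2 by 0.27 ± 0.06. That call was lost in the deposited scaling (-0.20), with median centring (-0.21) and on the siRNA arrays alone (-0.24). It was also lost with no intensity trend in the fit, as a mean of its probe sets (-0.17) and without control siRNA replicate 2 (-0.22). Without ICG-001 6 h replicate 3 or DMSO 24 h replicate 1 the count of calls with CTNNB1 siRNA was 2.

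Of 33 listed histone chaperones, which hand histones to DNA, 6 were in the table. At 24 h of ICG-001 4 fell and 0 rose (median -1.35), where 11.3% of all genes fell. SUPT16H, a subunit of the FACT chaperone, fell by 1.62 ± 0.11, and the CAF-1 subunits CHAF1B and CHAF1A fell by 1.41 ± 0.13 and 1.29 ± 0.10. For CHAF1A the mean of its probe sets gave -0.69. ASF1B, an H3 and H4 chaperone, fell by 2.50 ± 0.44, and by 1.59 without DMSO 24 h replicate 3. At 6 h 3 fell, where 8.19% of all genes did. SUPT16H fell by 1.23 ± 0.11, CHAF1B by 0.61 ± 0.13 and CHAF1A by 0.61 ± 0.10, the last not passing as a mean of its probe sets (-0.33). With CTNNB1 siRNA 3 fell, where 5.90% of all genes did, NAP1L5 by 1.07 ± 0.29, UBN2 by 0.45 ± 0.13 and CHAF1A by 0.38 ± 0.12. NAP1L5 read at low intensities, with means of 17.6 and 4.23 with control and CTNNB1 siRNA. Its call ended in the deposited scaling, with median centring and on the siRNA arrays alone (-0.72 in each). The NAP1L5 call also ended without control siRNA replicate 1 (-0.78) or either CTNNB1 siRNA array (-1.07 and -1.09). The UBN2 call ended with 1 added before log2 (-0.47) and as a mean of its probe sets (-0.375). It also ended on leaving out any single siRNA array (-0.49 to -0.39). The CHAF1A call lay at the threshold. It ended in the deposited scaling (-0.33), with the replicate block (-0.38), and without any 1 of the ICG-001 arrays, the DMSO 6 h arrays or the siRNA arrays (-0.45 to -0.32). That count was 1 in the deposited scaling, 1 without control siRNA replicate 2 and 0 without any of the other 3 siRNA arrays.

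DNA replication genes, of which 10 of 42 listed were in the table, fell in 9 cases at 6 h and 9 at 24 h of ICG-001, with 0 rises, and in 5 with CTNNB1 siRNA. Of all genes 8.19%, 11.3% and 5.90% fell in these comparisons. The medians of the 10 were -0.60, -1.53 and -0.25. Fitted on the siRNA arrays alone, 3 of the 10 fell. At 24 h GINS2, part of the helicase that unwinds DNA, fell by 2.31 ± 0.06 and MCM6, of the same helicase, fell by 1.97 ± 0.10. The checkpoint adaptor CLSPN fell by 1.91 ± 0.07 and the origin recognition subunit ORC1 fell by 1.76 ± 0.08. At 6 h CLSPN fell by 1.30 ± 0.07, ORC1 by 1.24 ± 0.08, the polymerase subunit POLA2 by 1.12 ± 0.10 and GINS2 by 0.90 ± 0.06 (0.48 in the deposited scaling). With CTNNB1 siRNA ORC1 fell by 0.52 ± 0.10, RRM1, a subunit of ribonucleotide reductase, by 0.39 ± 0.07, GINS4 by 0.37 ± 0.09 and GINS2 by 0.33 ± 0.07. The GINS2 call ended with median centring (-0.27) and with no intensity trend in the fit. That of GINS4 ended on the siRNA arrays alone (-0.42), and the mean of its probe sets gave -0.66.

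Of 27 listed enzymes that add or remove histone acetyl groups, 8 were in the table. At 24 h of ICG-001 2 rose and 0 fell, where 9.22% of all genes rose. HDAC9, a deacetylase, rose by 0.87 ± 0.07, and SIRT3, a mitochondrial deacetylase, rose by 0.57 ± 0.07 (1.03 in the deposited scaling). At 6 h 2 rose and 1 fell, where 5.54% of all genes rose and 8.19% fell. HDAC9 rose by 0.95 ± 0.07, though its probe sets averaged did not pass (0.29), and SIRT3 rose by 0.57 ± 0.07 (0.96 in the deposited scaling). CREBBP, the gene for CBP, read at low intensities, fell by 0.62 ± 0.17 at 6 h. That call ended without ICG-001 6 h replicate 1 (-0.55), DMSO 6 h replicate 1 (-0.48) or DMSO 6 h replicate 2 (-0.60). With CTNNB1 siRNA 1 rose and 1 fell, where 6.25% of all genes rose and 5.90% fell. HDAC9 rose by 0.72 ± 0.09 and CREBBP fell by 0.77 ± 0.21, the latter not in the deposited scaling (-0.55), without control siRNA replicate 2 (-0.74) or without CTNNB1 siRNA replicate 2 (-0.71). How far the changes of these lists and those of the histone genes bear on each other was not tested.

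Pearson's r of log2 values over the 16 arrays is given as a description. Since the choice of the genes and their shared rise at 24 h enter it, nothing is read from its size. Among the 7 genes that rose at 24 h it was 0.93 between H2BC5 and H3C6, 0.92 between H2AC6 and H2BC21 and 0.88 between H2AC6 and H3C6. The lowest value among these 7 was 0.38, between H4C8 and H2AC25. H1-6 and H2BC3 had r of 0.57 with each other and of -0.16 and -0.10 with H2AC6. For H2BC5 the most alike genes of the table were FAM149B1, ASS1 and CNGA1, with r of 0.97, 0.97 and 0.97. For H2AC6 they were BCAS3 (0.98), KLF3-AS1 (0.96) and CEMIP (0.95), and for H2AC25 CARINH (0.95), MXI1 (0.95) and FADS3 (0.93). All these values rest on the same 16 arrays in 6 groups, including the difference between the experiments.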

How the data were processed

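The authors deposited 1 intensity value per probe set and array on a linear scale, from 0.55 to 19347. How probes were summarised, and whether arrays were scaled, is not given in the sources used here. Every probe set in the table had a coefficient of variation of at least 0.40 over the 16 arrays, so genes that varied little were outside all counts. Genes were named through the platform's probe table and RefSeq gene identifiers. Of 9554 probe sets, 6442 had 1 gene, 252 several and 2860 none.

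Array medians of log2(intensity + 16) differed by 0.64, above the limit of 0.5 set for scaling, and quantile normalization was applied. Within each experiment the medians differed by less than that limit, at 5.19 to 5.48 on the drug arrays and 4.84 to 4.86 on the siRNA arrays. The probe set with the highest mean stood for each gene. One limma 3.58.1 model in R 4.3.3, tested on simulated data, held all 6 groups (10 residual degrees of freedom, intensity trend in the prior). Tests were two-sided, with Benjamini-Hochberg adjustment over 5250 genes, and the 2 or 3 arrays per group limit the precision. Alternatives covered scaling, the number added before log2, filtering, probe sets, the samples fitted, a replicate block and each array left out.

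The members and the lists were chosen with earlier results of these data known. Named were all 10 histone genes, every measured histone gene outside them, up to 4 called genes of each other list with the largest change per treatment comparison, CREBBP and, for the 3 histone genes of highest mean intensity, the 3 genes most correlated with each.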

Additional observations from a re-analysis of the deposited data

Results flagged for a closer look

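The change with ICG-001 differed between 24 h and 6 h for 4 of the 10 histone genes by the interaction term of the limma fit. Of all genes, 3.85% passed it upward and 3.92% downward. The 10 genes were chosen on these same arrays, so their adjusted p values are a description only. The difference on the log2 scale was 1.24 for H2BC5 (adjusted p = 9.58e-08), 1.08 for H3C6 (adjusted p = 0.00164), 0.88 for H2AC6 (adjusted p = 0.000299) and 0.75 for H4C8 (adjusted p = 0.0287). The H4C8 call ended with each array centred on its median (0.74) and without any of 9 single arrays (0.66 to 0.76). In each of the 4 the rise over DMSO was larger at 24 h.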

How the results depend on the processing

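Over the alternatives, 1502 of 1560 values of the 10 histone genes kept their side of the threshold, 45 called values were no longer called and 13 became called. No called value changed sign. At 24 h of ICG-001 the count of histone genes that rose was within 1.5 times of 7 in every alternative. The largest shift was in the knockdown, where the count went from 4 to 1 on the 4 siRNA arrays alone and ranged from 1 to 4 with single arrays left out (with 1 array left in a group, its spread is taken from the other groups). The calls over all genes there went from 638 to 414 with each array centred on its median and to 303 on the siRNA arrays alone. Of the lists with CTNNB1 siRNA, the histone genes outside the set gave 0 calls in the deposited scaling, with median centring and with 1 added before log2. Chaperones gave 1 and acetylation enzymes gave 1 under each of these 3. The mRNA processing list gave 0 with median centring and 2 with 64 added, and DNA replication gave 3 with median centring. On the siRNA arrays alone the genes outside the set gave 0, acetylation enzymes 1 and DNA replication 3. For the probe sets of several histone genes at 6 h of ICG-001, the count was 1 in the deposited scaling. The split of rises and falls over all genes turned with scaling, from 484 and 591 at 24 h of ICG-001 to 738 and 385 in the deposited scaling, and from 291 and 430 to 406 and 244 at 6 h. Same-numbered arrays did not deviate together (correlations from -0.06 to 0.09), and the numbers are not taken as pairs. With the replicate number as a block, 7 histone genes rose at 24 h and 2 in place of 3 at 6 h, H2BC21 missing the threshold. For genes of low intensity, such as H2AC15, the number added before log2 limits the size of change that can be read.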
